A study of Mus musculus with 72 samples.

Results

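The genes described here encode enzymes that make or break down heme, and they were chosen by name: Alas1, Alad, Uros, Urod, Cpox, Ppox, Fech and Hmox1. All 8 were found among the 55573 genes of the count table through their Ensembl identifiers, and all 8 had counts in every library. The table holds liver RNA of 72 adult male C57BL/6 mice in 4 groups of 18. WT mice were Bmal1 fl/fl, and LKO mice were Bmal1 fl/fl with Albumin-cre, which is active in hepatocytes, so the other cells of the liver kept the gene. The product of Bmal1 is a transcription factor that drives the clock, and both genotypes carry the loxP sites. Mice of both genotypes were housed either under specific pathogen-free (SPF) conditions with a microbiota, or germ free (GF) in isolators, where the line had been rederived. In each group 3 mice were sampled at each of ZT2, ZT6, ZT10, ZT14, ZT18 and ZT22, where ZT (zeitgeber time) is the number of hours after lights on in a 12:12 light/dark cycle. Chow was autoclaved and always available.

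Heme is an iron-containing ring that hemoproteins such as cytochromes P450, catalase and the respiratory cytochromes need. Synthesis starts in the mitochondrion with 5-aminolevulinate synthase, which in liver is the product of Alas1 and the rate-limiting step, passes through the cytosol with the products of Alad, Uros and Urod among others, and returns to the mitochondrion, where the products of Cpox, Ppox and Fech complete the ring and insert iron. Heme oxygenase 1, from Hmox1, opens the ring into biliverdin, iron and carbon monoxide. In liver most of this heme goes to cytochromes P450, heme itself lowers Alas1 mRNA and raises Hmox1, and Alas1 is known to follow the time of day. BMAL1 acts with CLOCK or NPAS2 at E-boxes, of which CACGTG is the canonical form.

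Upstream sequences are shown for 4 members, as examples of letters that BMAL1, or a factor known for these genes, can bind. RefSeq promoter windows of GRCm38.p6, from 250 bases before to 50 bases after a start, were found for 6 of the 8 genes in 9 windows, and for Fech and Hmox1 there was no window. The first set holds CACGTG, which lay in the windows of Alad, Urod and Uros, 4 of the 9 windows against 7.15% of all 32851 windows. The motif reads the same on both strands and is in capitals in the 250 bases before the start of Alad at chr4:62520064-62520313 and of Urod at chr4:116994414-116994663, both on the minus strand, with no annotated exon:
Alad: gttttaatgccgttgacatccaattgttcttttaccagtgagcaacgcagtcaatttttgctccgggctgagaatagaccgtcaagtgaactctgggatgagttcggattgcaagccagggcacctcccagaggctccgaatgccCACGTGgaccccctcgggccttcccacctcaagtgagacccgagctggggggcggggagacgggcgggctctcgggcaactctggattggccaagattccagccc
Urod: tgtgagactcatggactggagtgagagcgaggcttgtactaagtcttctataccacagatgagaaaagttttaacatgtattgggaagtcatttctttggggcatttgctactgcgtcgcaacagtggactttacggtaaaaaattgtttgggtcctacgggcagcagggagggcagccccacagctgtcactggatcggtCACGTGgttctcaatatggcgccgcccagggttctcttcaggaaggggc
The copy in Alad ended 99 bases before this start and the copy in Urod 43 bases before its own. Alad has another start in RefSeq with a copy of its own, 22 bases before it. The second set is the 30 bases around the only site of CGCATGCG, the core of the motif of NRF1, a regulator of mitochondrial genes. It lay in both windows of Alas1 and in 1.87% of all windows. The 30 bases lie at chr9:106247906-106247935 on the minus strand, 186 bases before the second start and within an exon of a longer Alas1 transcript:
Alas1: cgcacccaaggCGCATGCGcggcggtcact
The third set is the 250 bases before Ppox at chr1:171281187-171281436 on the minus strand, in which CCAAT, the site of NF-Y, stands 4 times when both strands are read. CCAAT in any number was in 37.4% of all windows and 4 or more copies were in 1.06%, a count chosen after the window had been read:
Ppox: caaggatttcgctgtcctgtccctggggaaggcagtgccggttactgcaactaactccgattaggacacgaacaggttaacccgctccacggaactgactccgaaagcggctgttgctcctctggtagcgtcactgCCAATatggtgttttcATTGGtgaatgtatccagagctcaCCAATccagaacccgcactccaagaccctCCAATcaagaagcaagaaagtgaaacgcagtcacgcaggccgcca
TTANGTAA, the site of DBP, TEF and HLF, ANTAGGTCA, the site of the heme-binding receptor REV-ERBα, and TGACNNNGC, the site of NRF2 and BACH1, were in none of the 9 windows and in 2.32%, 0.661% and 12.4% of all windows on either strand. A match describes the letters only.

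Each library held 17369927 to 22076113 counts (median 19106725). A member had between 128 counts (Ppox, lowest library) and 15878 counts (Alas1, highest library). The labels number the replicates and nothing else ties them, and no 2 libraries held the same counts. Counts per gene do not separate the deleted part of Bmal1 (listed as Arntl), so Npas2, which the clock holds down, was read beside it. In units of counts per 1000000 (CPM), Npas2 was at most 9.89 in SPF and 13 in GF libraries of WT mice, against 16.8 to 44.4 in GF LKO libraries. In SPF LKO libraries it ranged from 14.4 to 36.4, except for 1.83 CPM in ZT18 replicate 1 and 0.221 in ZT14 replicate 2. With SPF WT ZT14 replicate 3 and GF WT ZT6 replicate 3, whose Arntl stood apart from the other two mice of their ZT (2.11 against 15.8 and 19.3 CPM, and 8.24 against 1.64 and 2.42), there were 4 libraries that went against their labels. All were kept, and counts of calls are also given without them. The 8 hepatocyte markers, none of which was at 0, summed to a median of 121540 CPM in SPF WT (96216 to 148020), 73945 in SPF LKO (56097 to 141440), 157040 in GF WT (132310 to 188250) and 81540 in GF LKO mice (72434 to 100400). Alb, the albumin gene, fell by 49.3% in SPF LKO and fell by 69.3% in GF LKO mice. It weighs heavily in these sums, with a median of 83739 CPM in SPF WT mice. The other markers did not all follow it. At an adjusted p under 0.05 with all ZT pooled (edgeR), only 1 of the 8 fell and 0 rose by genotype under SPF conditions. Their median log2 fold change was −0.064. Under GF conditions 3 fell and 1 rose by genotype, with a median of −0.15. By the same test 7 of the 8 rose and 0 fell in GF WT compared with SPF WT mice, and 5 rose and 1 fell in GF LKO compared with SPF LKO mice. In the same order, 11.6%, 15.6%, 14.2% and 18.1% of all genes rose and 11.5%, 15.2%, 17.7% and 18.4% fell. The part of these differences in the values of the heme genes was not tested. Erythroid cells also make heme, and Alas2, their own first enzyme, had medians of 87.9 to 132 CPM by group.

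Levels per kilobase of exon set the members in nearly the same order in all groups. Alas1 and Alad were the most abundant, at 58.3 ± 24.4 and 56 ± 6.61 CPM per kb (SD, n = 18) in SPF WT mice, and did not differ beyond the spread of Alas1. Urod followed at 31.2 ± 3.38, Cpox at 21.3 ± 4.34, Fech at 14.6 ± 1.12, Hmox1 at 10.0 ± 2.89, Uros at 5.23 ± 0.804 and Ppox at 3.09 ± 0.457 CPM per kb. Alad stood above Alas1 in the other 3 groups, by less than the spread of Alas1. Uros, at 7.21 ± 0.836 CPM per kb, stood above Hmox1, at 6.48 ± 1.77, in GF LKO mice, where the ranges of these neighbours overlapped. Ppox, the enzyme before the last, had the lowest level per kilobase in every group. In CPM, which leaves length aside, its mean was above that of Hmox1 in GF LKO mice (12.5 ± 1.13 against 11.4 ± 3.10).

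Alas1 (ENSMUSG00000032786, chr9:106233455-106248654, minus strand) had the largest fitted daily amplitude of the 8 genes in every group. Of its exon bases, 7.53% overlap an antisense gene, 4930500F10Rik, and the counting did not use strand. In SPF WT mice the 3 libraries read 239, 229 and 285 CPM at ZT2, 461, 305 and 429 at ZT6, 646, 407 and 567 at ZT10, 400.1, 639 and 352 at ZT14, 288, 273 and 429.9 at ZT18, and 194, 118 and 219 at ZT22. All 3 libraries of ZT10 stood above all 3 of ZT2 and of ZT22. The fitted rhythm of 24 h, a cosine and a sine term in edgeR's quasi-likelihood model, peaked at ZT10.9 with a fitted 2.82-fold difference between peak and trough (adjusted p = 0.000352).

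The rhythm of Alas1 passed the test in the other groups as well, with fitted peaks at ZT12.2 in SPF LKO, ZT12.2 in GF WT and ZT13.8 in GF LKO mice. The fitted difference between peak and trough was 3.78-fold in SPF LKO (adjusted p = 0.00571), 6.20-fold in GF WT (adjusted p = 0.000604) and 6.70-fold in GF LKO mice (adjusted p = 0.000806), by the same edgeR test. In GF WT mice the libraries of ZT2 read 62.1, 98.2 and 65.7 CPM and those of ZT10 512, 476 and 486. In GF LKO mice they read 68.8, 72.2 and 40.2 CPM at ZT2 and 531, 469.6 and 323 at ZT14. The values of ZT2 lay well below those of ZT10 and ZT14 in GF WT and GF LKO mice. Those of ZT22 were closer, at 115, 200 and 122 CPM in GF WT and 120, 180 and 93.4 in GF LKO mice. At ZT6 GF LKO mice held both low and high libraries (39.6, 47.4 and 305 CPM). Left without the mice numbered 1, the rhythm of SPF LKO mice missed the threshold (adjusted p = 0.0833).

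**Figure D1:**
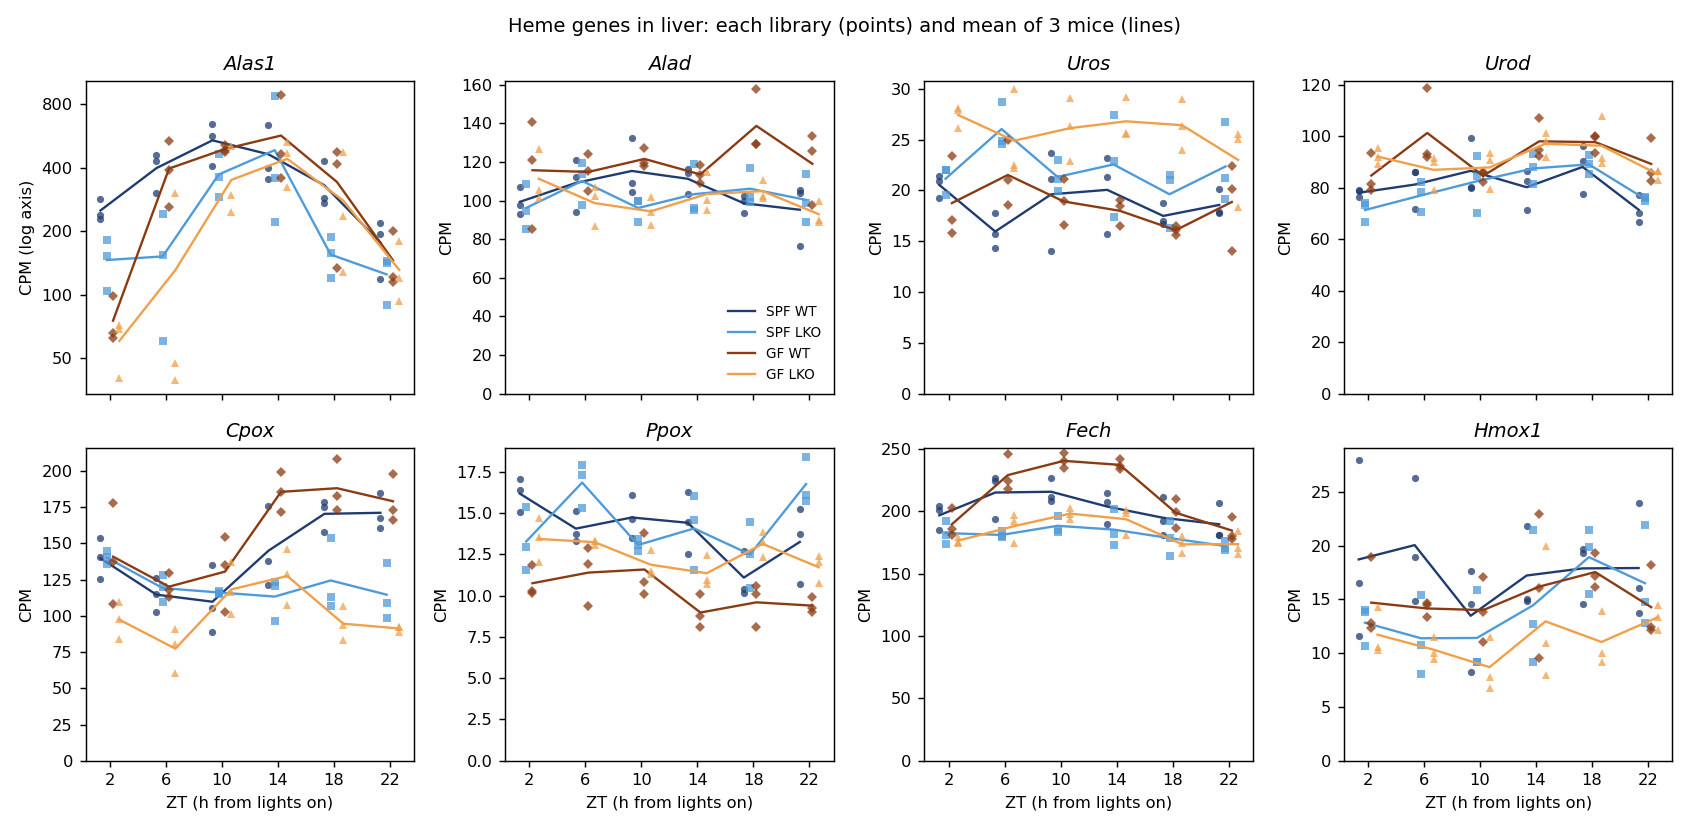
CPM of each of the 8 genes (vertical axes, on a log scale for Alas1 and starting at 0 for the others) against ZT in hours (horizontal axes), with 1 point per library, 3 per group and ZT, set slightly apart by group, and lines through the means of the 4 groups. The points of Alas1 range from 39.6 to 883 CPM and their means are highest at ZT10 or ZT14 in every group, while those of Fech stay between 164 and 247 CPM.

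Of the 8 genes, 3 passed an adjusted p of 0.05 between SPF LKO and SPF WT mice with all ZT pooled (edgeR's quasi-likelihood test, Benjamini-Hochberg adjustment over all genes tested), 1 higher and 2 lower, where 23.1% of all genes passed (11.6% higher, 11.5% lower). Between GF LKO and GF WT mice 6 of the 8 passed, 2 higher and 4 lower, where 30.8% of all genes did (15.6% higher, 15.2% lower). Uros was higher and Cpox and Fech were lower in LKO mice under both conditions. Ppox (higher) and Alad and Hmox1 (lower) were called in GF mice, and the test of the difference between GF and SPF mice follows. Between GF WT and SPF WT mice 3 passed, 2 higher and 1 lower (31.8% of all genes, 14.2% higher and 17.7% lower), and between GF LKO and SPF LKO mice 5, 2 higher and 3 lower (36.4%, 18.1% higher and 18.4% lower). Each group enters 2 of these comparisons, so they share libraries. Without the 4 libraries that went against their labels the counts were 4, 6, 3 and 4.

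**Figure D2:**
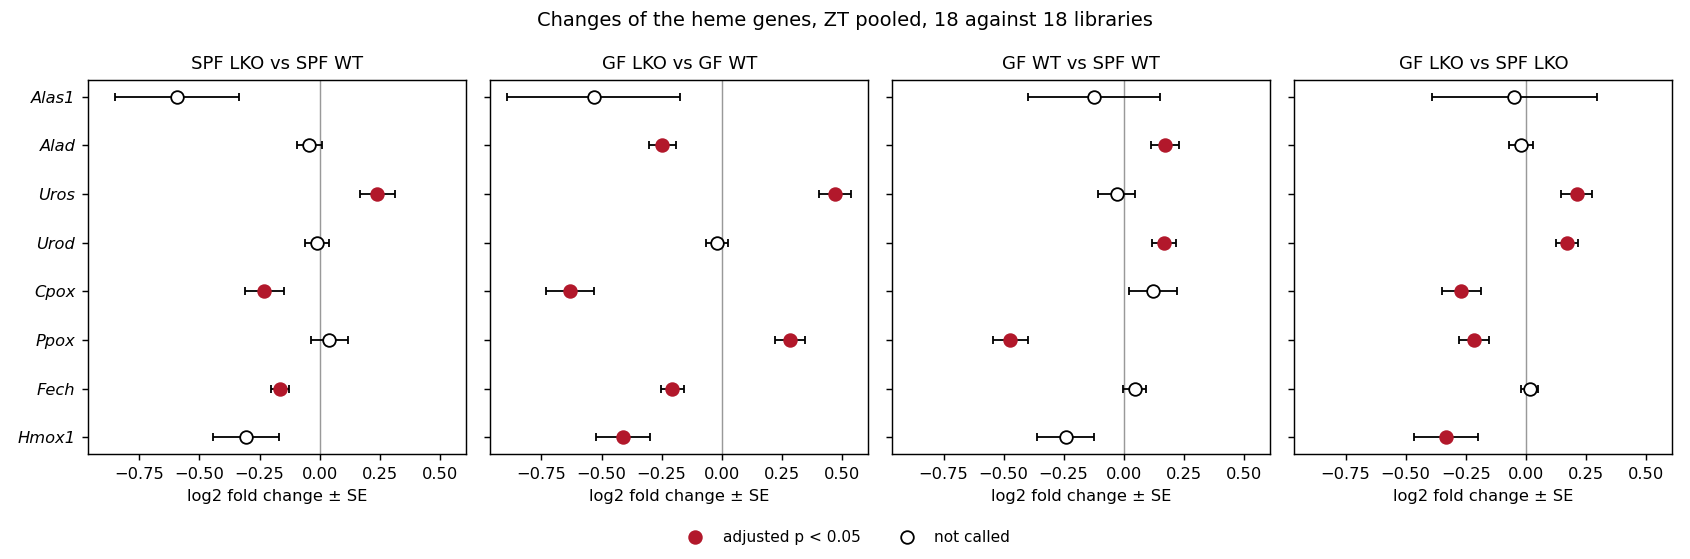
Log2 fold change (horizontal axis) of each of the 8 genes (vertical axis) in the 4 comparisons with all ZT pooled, with bars of 1 SE and filled points for an adjusted p under 0.05. Cpox lies at −0.63 and Uros at 0.47 between GF LKO and GF WT mice, while Alas1 has the widest bars, up to 0.36.

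Whether the change by genotype depended on the microbiota was tested on all 72 libraries, and this interaction passed for 0 of the 8 genes, where 0.438% of all genes passed. At an unadjusted p under 0.05 there were 4 of the 8 (Alad, Uros, Cpox and Ppox), where 6.50% of all genes were. The lowest adjusted p was that of Cpox, whose effect was more negative by 0.41 in GF mice on the log2 scale (−0.41, SE 0.13, adjusted p = 0.232, edgeR). By DESeq2 the count was also 0.

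Within single ZT, each fitted on 12 libraries with 3 mice per group, the 8 genes gave 48 pairs of gene and ZT in each comparison. Between SPF LKO and SPF WT mice 3 of 48 passed (4.92% of all tests), between GF LKO and GF WT mice 8 (7.99%), between GF WT and SPF WT mice 3 (2.89%) and between GF LKO and SPF LKO mice 4 (2.71%). Without the 4 libraries the counts were 4, 11, 3 and 4. With no filter on low counts the first 3 were 10, 13 and 5, and by DESeq2 the second and the fourth were 14 and 7. Most of these calls were lost when 1 of the 6 libraries compared was left out, as given beside each. Where groups at a ZT are said not to overlap, the share of all genes without overlap was not counted.

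**Figure D3:**
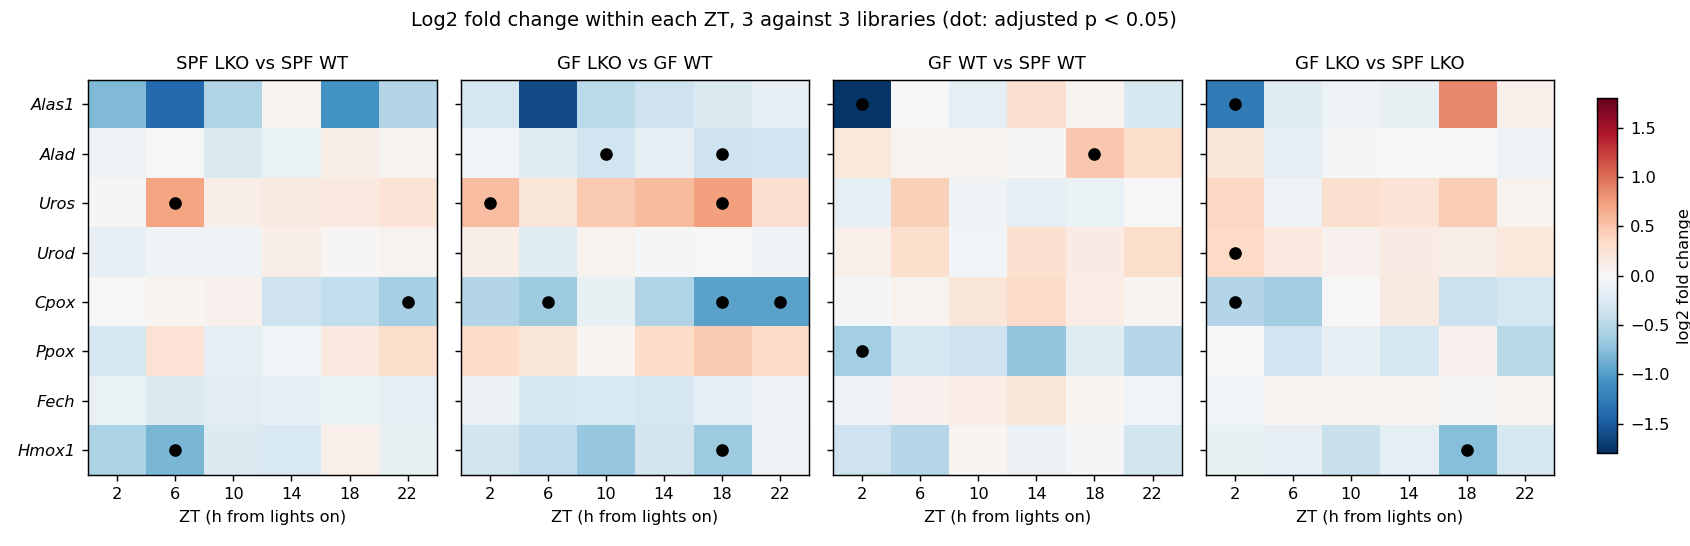
Log2 fold change (colour) within each ZT (horizontal axes, hours) for each of the 8 genes (rows) in the 4 comparisons, 1 panel each, with red above 0, blue below 0 and a dot where the adjusted p is under 0.05. Fech is below 0 at all 6 ZT in both comparisons of LKO with WT mice, and the lowest value, −1.76, is that of Alas1 at ZT2 between GF WT and SPF WT mice.

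In the pooled comparisons Alas1, the first enzyme, was not called. It ranged from 118 to 646 CPM (median 328) in SPF WT and from 60.4 to 875 (median 169.6) in SPF LKO mice, a log2 fold change of −0.59 (SE 0.26, adjusted p = 0.0918, edgeR). The ranges overlapped, and the highest value was that of SPF LKO ZT14 replicate 2, whose Npas2 stood with the WT libraries. Without that library the log2 fold change was −0.84 (adjusted p = 0.00419), and without the 4 libraries −0.81 (adjusted p = 0.0079). With ZT as a term of the fit, which takes the rhythm out of the spread, it was −0.71 (adjusted p = 0.00177), and without the mice numbered 2 it was −0.90 (adjusted p = 0.024). In GF mice the libraries ranged from 62.1 to 883 CPM (median 375) in WT and from 39.6 to 531 (median 208) in LKO, a log2 fold change of −0.53 (SE 0.36, adjusted p = 0.281), or −0.52 (adjusted p = 0.0661) with ZT as a term.

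Within ZT, Alas1 of SPF LKO libraries lay below that of SPF WT libraries without overlap at ZT2, ZT6 and ZT18, none of which passed, where 6.89%, 7.26% and 0.0150% of all genes did. At ZT2 the SPF LKO libraries read 104, 182 and 152 CPM against 239, 229 and 285 in SPF WT (log2 fold change −0.80, SE 0.24, adjusted p = 0.0604), at ZT6 154, 242 and 60.4 against 461, 305 and 429, and at ZT18 120.3, 157 and 187 against 288, 273 and 429.9. At ZT14 the SPF groups overlapped (359, 875 and 220.4 CPM in LKO, 400.1, 639 and 352 in WT).

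The calls of Alas1 were between GF and SPF mice at ZT2, 2 hours after lights on. GF WT libraries read 62.1, 98.2 and 65.7 CPM there against 239, 229 and 285 in SPF WT mice, and GF LKO libraries 68.8, 72.2 and 40.2 against 104, 182 and 152 in SPF LKO mice. All GF libraries were below all SPF libraries of the same genotype. The log2 fold change was −1.76 (SE 0.24, adjusted p = 0.00128) in WT and −1.28 (SE 0.24, adjusted p = 0.00805) in LKO mice by edgeR, where 10.1% and 8.92% of genes passed at that ZT. Both calls held when any single library was left out, and neither held without the mice numbered 3 (adjusted p = 0.0751 and 0.208). Over all ZT together the log2 fold change was −0.12 (SE 0.28, adjusted p = 0.759) in WT and −0.049 (SE 0.34, adjusted p = 0.927) in LKO mice.

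Alad, the second enzyme (ENSMUSG00000028393, chr4:62509169-62519918, minus strand), ranged from 76.2 to 132 CPM (median 104) in SPF WT, 85.1 to 119 (median 99.6) in SPF LKO, 85.5 to 158 (median 120.3) in GF WT and 86.6 to 127 (median 101) in GF LKO mice. GF WT mice stood above the other groups, with overlapping ranges. Alad fell by 15.8% in GF LKO compared with GF WT mice (log2 fold change −0.25, SE 0.056, adjusted p = 0.000639), and was higher by 12.7% in GF WT than in SPF WT mice (0.17, SE 0.058, adjusted p = 0.0208), both by edgeR. Neither call of this gene held under all leave-outs, since the first missed without the mice numbered 2 (adjusted p = 0.0571), the second without those numbered 2 or 3 (adjusted p = 0.154 and 0.162). At ZT18 GF WT libraries read 129, 129 and 158 CPM, above 93.7, 99.8 and 102 in SPF WT and 111, 101 and 103 in GF LKO mice. Both differences at ZT18 passed (adjusted p = 0.0398, or 0.0589 with the replicate block, and 0.0304, where 0.983% and 8.43% of genes passed), as did GF LKO against GF WT at ZT10 (adjusted p = 0.0399, 13.1%). Each of the 6 libraries compared at ZT18 ended its call when left out (adjusted p up to 0.158 and 0.0961), as did each at ZT10 but GF LKO replicate 3 (up to 0.155). Alad showed no rhythm past the threshold in any group.

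Uros (ENSMUSG00000030979, chr7:133686243-133710072, minus strand), whose enzyme closes the ring, was higher in LKO mice in both conditions. It ranged from 14.0 to 23.7 CPM (median 18.3) in SPF WT and from 16.3 to 28.7 (median 21.7) in SPF LKO, a rise of 18.2% (log2 fold change 0.24, SE 0.073, adjusted p = 0.0141, edgeR). In GF mice it ranged from 14.1 to 25 CPM (median 18.5) in WT and from 18.4 to 29.96 (median 25.9) in LKO, a rise of 38.7% (0.47, SE 0.067, adjusted p = 4.55e-07). The GF call held under every alternative run, and the SPF call was lost without the mice of each number in turn (adjusted p = 0.0507 to 0.0766). The fitted change was above 0 at 6 of 6 ZT in both comparisons.

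Single ZT gave the clearest separation of Uros. At ZT6 the SPF LKO libraries read 24.6, 24.8 and 28.7 CPM against 17.8, 14.3 and 15.8 in SPF WT mice (log2 fold change 0.70, SE 0.15, adjusted p = 0.0102, where 7.26% of genes passed). At ZT18 the GF LKO libraries read 29, 26.3 and 24.0 CPM against 15.6, 16.5 and 16.1 in GF WT mice (0.74, SE 0.13, adjusted p = 0.00613). The groups did not overlap at either ZT, and both calls held when any single library was left out. The first was lost without the mice numbered 2 (adjusted p = 0.177), the second without those numbered 2 or 3 (adjusted p = 0.103 and 0.056). At ZT2 GF LKO libraries (27.9, 26.2 and 28.1 CPM) were also above those of GF WT mice (23.4, 15.8 and 17.1; adjusted p = 0.0412, where 4.21% passed), a call that was lost without 5 of the 6 libraries, namely GF WT replicates 2 and 3 and each GF LKO library (adjusted p up to 0.185). Between GF LKO and SPF LKO mice Uros was higher by 15.8% with all ZT pooled (0.21, SE 0.065, adjusted p = 0.0101), a call lost without the mice numbered 2 or 3 (adjusted p = 0.186 and 0.109). Between GF WT and SPF WT mice the log2 fold change was −0.030 (SE 0.076, adjusted p = 0.787). No rhythm of Uros passed in any group.

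Urod (ENSMUSG00000028684, chr4:116989965-116994413, minus strand), the last enzyme in the cytosol, differed by microbial status and was not called by genotype. SPF WT libraries ranged from 66.7 to 99.3 CPM (median 79.4) and SPF LKO libraries from 66.8 to 93.2 (median 79.9), while GF WT ranged from 79.1 to 119 (median 92.7) and GF LKO from 79.2 to 108 (median 91.1). The rise in GF mice was 12.3% in WT (log2 fold change 0.17, SE 0.051, adjusted p = 0.0116) and 12.6% in LKO (0.17, SE 0.046, adjusted p = 0.0038), both by edgeR. LKO and WT mice differed by −0.012 (SE 0.050) in SPF and −0.019 (SE 0.047) in GF on the log2 scale. The WT call was lost without the mice numbered 1 or 3 (adjusted p = 0.115 and 0.0876) and the LKO call without those numbered 2 (adjusted p = 0.0995). At ZT2 GF LKO libraries read 95.4, 91.8 and 89.1 CPM against 66.8, 74.1 and 73.1 in SPF LKO mice (0.36, SE 0.094, adjusted p = 0.0308), a call that each of the 6 libraries ended when left out (adjusted p = 0.0503 to 0.131). A small rhythm passed in SPF LKO mice, with a peak at ZT14.6 and a fitted 1.24-fold difference between peak and trough (adjusted p = 0.0202). It was lost without the mice numbered 1 or 3 (adjusted p = 0.338 and 0.12) and with ZT as a factor (adjusted p = 0.155).

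Cpox (ENSMUSG00000022742, chr16:58670292-58717636, plus strand), the first step back in the mitochondrion, showed the largest called change by genotype among the members. GF WT libraries ranged from 102 to 208 CPM (median 169) and GF LKO libraries from 60.4 to 146 (median 95.8), a fall of 35.5% (log2 fold change −0.63, SE 0.10, adjusted p = 3.15e-06, edgeR) that held under every alternative run. SPF WT libraries ranged from 89.1 to 185 CPM (median 139) and SPF LKO libraries from 96.1 to 153 (median 119), a fall of 14.7% (−0.23, SE 0.081, adjusted p = 0.0364). This SPF call was near the threshold. It was lost without the mice of each number in turn (adjusted p = 0.111 to 0.162) and without any 1 of 8 libraries of SPF WT (ZT2 replicate 3, ZT14 replicate 2 and all of ZT18 and ZT22) or 5 of SPF LKO (ZT6 replicate 3, ZT14 replicate 1, ZT18 replicate 2 and ZT22 replicates 1 and 3), with adjusted p of 0.0503 to 0.0613.

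Within ZT, 3 of the 4 calls of Cpox between LKO and WT mice were in the dark phase. At ZT22 GF LKO libraries read 92.1, 92.4 and 89.2 CPM against 166, 173 and 198 in GF WT mice (log2 fold change −0.97, SE 0.12, adjusted p = 0.000309, where 4.44% of genes passed), and at ZT18 106, 93.7 and 83.5 against 173, 208 and 183 (−0.97, SE 0.14, adjusted p = 0.00324). At ZT6, in the light, GF LKO libraries read 80.6, 60.4 and 90.9 CPM against 118, 113 and 129.8 (−0.63, SE 0.14, adjusted p = 0.00969, where 11.7% passed). No libraries of the 2 groups overlapped at these ZT, nor at ZT14, which did not pass (adjusted p = 0.0636, where 6.10% of genes did). In SPF mice the call was at ZT22, with 98.5, 136 and 109 CPM in LKO against 185, 168 and 161 in WT (−0.60, SE 0.12, adjusted p = 0.0135, where 3.31% passed). It was lost without SPF WT replicate 1 or 2 or SPF LKO replicate 1 or 3 (adjusted p = 0.0524 to 0.0709). The 3 GF calls held without any single library, and those of ZT6 and ZT18 were each lost for 2 of the 3 replicate numbers left out (adjusted p = 0.0518 to 0.0837).

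The rhythm of Cpox ran later than that of Alas1 in WT mice. It peaked at ZT19.9 in SPF WT (1.61-fold, adjusted p = 0.00185) and at ZT18.1 in GF WT mice (1.65-fold, adjusted p = 0.00104), against ZT13.6 in GF LKO mice (1.40-fold, adjusted p = 0.041). In SPF LKO mice the fitted difference was 1.14-fold (adjusted p = 0.446). The call in GF LKO mice was lost with the replicate block (adjusted p = 0.057) and without the mice numbered 1 or 3 (adjusted p = 0.212 and 0.285), that in SPF WT without those numbered 1 (0.0558) and that in GF WT without those numbered 2 (0.0649). Tests of a difference in rhythm between LKO and WT mice gave adjusted p of 0.0646 in SPF and 0.0781 in GF mice for this gene, and 0.00701 in SPF mice without the 4 libraries. Between GF LKO and SPF LKO mice Cpox was lower by 17% with all ZT pooled (log2 fold change −0.27, SE 0.081, adjusted p = 0.00875), a call lost without the mice numbered 2 (adjusted p = 0.133). At ZT2 it was 97.9, 109.8 and 84.3 CPM against 141, 135 and 144 (−0.53, SE 0.15, adjusted p = 0.0474, or 0.0503 with the replicate block), a call that each of the 6 libraries ended (adjusted p = 0.0553 to 0.174). Of the exon bases of Cpox, 3.06% overlap Gpr15 on the other strand, and the counting did not use strand.

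Ppox (ENSMUSG00000062729, chr1:171275990-171281186, minus strand), the enzyme before the last, was lower in GF than in SPF mice of both genotypes. It ranged from 10.2 to 17.1 CPM (median 14.1) in SPF WT and from 8.08 to 13.8 (median 10.1) in GF WT mice, a fall of 27.9% (log2 fold change −0.47, SE 0.074, adjusted p = 1.13e-05, edgeR). In LKO mice it ranged from 10.5 to 18.4 CPM (median 14.5) under SPF and from 10.7 to 14.7 (median 12.4) under GF conditions, a fall of 13.9% (−0.22, SE 0.063, adjusted p = 0.00692). The WT call held under every alternative run, and the LKO call missed without the mice numbered 1 or 2 (adjusted p = 0.0965 and 0.0514). At ZT2 GF WT libraries read 11.8, 10.2 and 10.3 CPM against 16.4, 17.1 and 15.1 in SPF WT mice (−0.61, SE 0.14, adjusted p = 0.0161), which missed without GF WT replicate 3 (adjusted p = 0.0651). Against GF WT mice, GF LKO mice had more Ppox by 21.8% (0.28, SE 0.061, adjusted p = 0.000304), above 0 at 6 of 6 ZT with no call at any. In SPF mice the difference by genotype was 0.041 (SE 0.076, adjusted p = 0.746). Of the exon bases of Ppox 17.5% overlap B4galt3 on the other strand, the largest such share of the members.

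Fech, on chromosome 18 (ENSMUSG00000024588), encodes ferrochelatase, which inserts iron. It was lower in LKO mice in both conditions. SPF WT libraries ranged from 181 to 227 CPM (median 206) and SPF LKO libraries from 164 to 202 (median 181), a fall of 10.8% (log2 fold change −0.16, SE 0.036, adjusted p = 0.000667, edgeR). GF WT libraries ranged from 178 to 247 CPM (median 214) and GF LKO libraries from 166 to 202 (median 181), a fall of 13.3% (−0.21, SE 0.048, adjusted p = 0.000802). The calls held under every alternative run, and the fitted change was below 0 at 6 of 6 ZT in both, with no call at a single ZT. At ZT10, for example, GF LKO libraries read 202, 198 and 194 CPM against 240.0, 235 and 247 in GF WT mice, without overlap. This difference did not pass (adjusted p = 0.0523, edgeR), where 13.1% of all genes did. Between GF and SPF mice the log2 fold change was 0.046 (SE 0.049) in WT and 0.016 (SE 0.034) in LKO. The rhythm of Fech passed in GF WT mice, with a peak at ZT10.7 and a 1.36-fold difference between peak and trough (adjusted p = 0.000232), and in GF LKO mice (ZT10.3, 1.16-fold, adjusted p = 0.0200). The GF LKO rhythm was lost without the mice of each number in turn (adjusted p = 0.122 to 0.171).

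Hmox1 (ENSMUSG00000005413, chr8:75093621-75100589, plus strand), the enzyme of heme breakdown, was lower in GF LKO mice than in the groups that differ from them by 1 factor. GF LKO libraries ranged from 6.77 to 19.9 CPM (median 10.8), GF WT from 9.58 to 22.9 (median 14.6), SPF LKO from 8.04 to 22.0 (median 13.9) and SPF WT from 8.30 to 28 (median 16.3). All ranges overlapped. The fall was 24.8% against GF WT (log2 fold change −0.41, SE 0.11, adjusted p = 0.0046) and 20.6% against SPF LKO mice (−0.33, SE 0.13, adjusted p = 0.046), by edgeR. The first missed without the mice numbered 1 or 2 (adjusted p = 0.0858 and 0.185), and the second in 27 of 45 alternatives, the one without the 4 libraries among them (adjusted p = 0.0985), with adjusted p up to 0.614. Between SPF LKO and SPF WT mice the log2 fold change was −0.31 (SE 0.14, adjusted p = 0.109; 0.03 without the mice numbered 2), and between GF WT and SPF WT mice −0.24 (SE 0.12, adjusted p = 0.118; 0.0414 without SPF WT ZT10 replicate 3).

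Within ZT, Hmox1 passed 3 times, each near the threshold. At ZT6 SPF LKO libraries read 10.8, 15.4 and 8.04 CPM against 14.9, 19 and 26.3 in SPF WT mice, with overlap (log2 fold change −0.82, SE 0.23, adjusted p = 0.0449). At ZT18 GF LKO libraries read 10.0, 14.0 and 9.18 CPM, below 17.2, 19.3 and 16.1 in GF WT (−0.65, SE 0.18, adjusted p = 0.0481) and below 15.5, 21.5 and 19.9 in SPF LKO mice (−0.77, SE 0.18, adjusted p = 0.0401, where 3.71% of genes passed). With the replicate number as a block all 3 missed (adjusted p = 0.0634, 0.0566 and 0.0524). The ZT6 call was lost without SPF WT replicate 2 or 3 or SPF LKO replicate 1 or 3 (adjusted p up to 0.194). The ZT18 calls were lost without any of the 6 libraries but GF LKO replicate 2 (adjusted p up to 0.155 and 0.122), and the one against SPF LKO also without SPF LKO replicate 1, whose clock genes went against its label (adjusted p = 0.0542). No rhythm of Hmox1 passed. In SPF LKO mice it had a fitted peak at ZT19.1 and a 1.68-fold difference (adjusted p = 0.0532; 0.0479 without the 4 libraries and 0.0383 with the replicate block).

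Kupffer cells, the macrophages of the liver, are a main site of Hmox1. The 9 markers of macrophages, none of which was at 0, summed to 231 to 559 CPM (median 309) in SPF WT, 218 to 346 (median 269) in SPF LKO, 186 to 352 (median 281) in GF WT and 143 to 303 (median 231) in GF LKO mice. Compared with WT, 4 of the 9 fell in SPF LKO and 3 in GF LKO mice. Compared with SPF, 1 fell in GF WT and 3 in GF LKO mice, and none rose in the 4 comparisons. In the same order 11.5%, 15.2%, 17.7% and 18.4% of all genes fell. Hmox1 was called lower in the second and the fourth of these comparisons. The part of the markers in the level of Hmox1 was not tested. In whole liver, fewer cells of a type and less RNA per cell cannot be told apart.

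Rhythms passed for 2 of the 8 genes in SPF WT (15.5% of all genes), 2 in SPF LKO (22.2%), 3 in GF WT (27.7%) and 3 in GF LKO mice (36%), and Alas1 was among them in each. Without the 4 libraries the counts were 2, 3 and 4 in SPF WT, SPF LKO and GF WT mice, and GF LKO mice held none of the 4. No difference in rhythm passed for any of the 8 genes by edgeR, between LKO and WT mice in SPF (1.06% of all genes) or GF (6.04%), or between GF and SPF mice in WT (0.0442%) or LKO (4.96%). At an unadjusted p under 0.05 there were 1, 2, 3 and 1 of the 8 in the same order, where 13.2%, 19.9%, 11.7% and 23.5% of all genes were. For Alas1 between GF and SPF WT mice the adjusted p was 0.401.

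**Figure D4:**
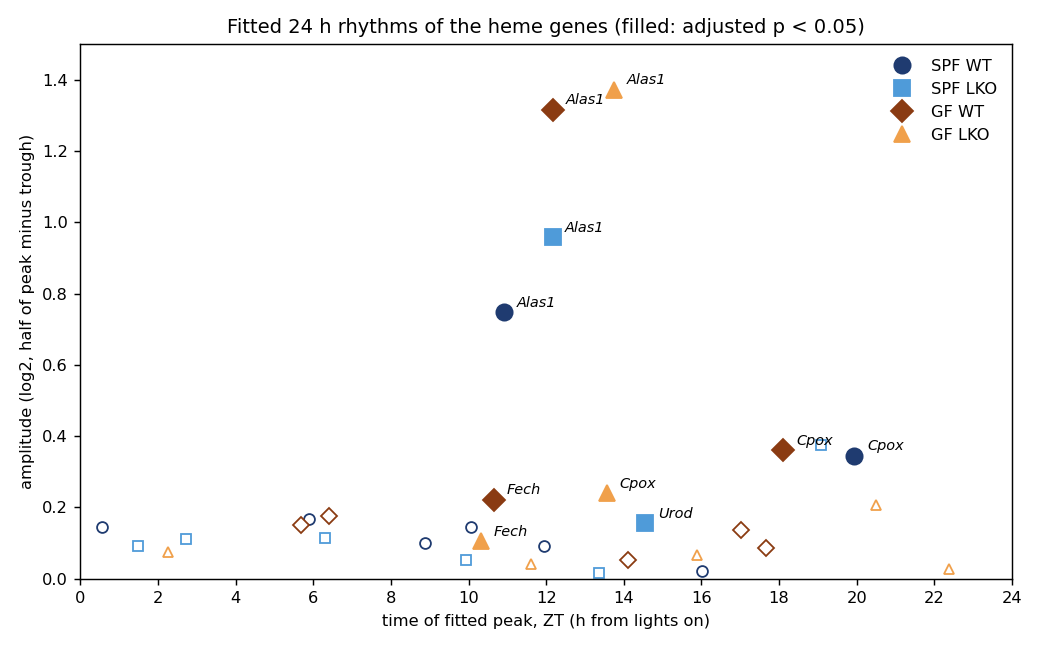
Amplitude of the fitted 24 h rhythm on the log2 scale (vertical axis, starting at 0) against the fitted peak in ZT hours (horizontal axis) for the 8 genes in the 4 groups, with filled points for an adjusted p under 0.05. The 4 points of Alas1, from 0.75 to 1.37, lie above all others and peak between ZT10.9 and ZT13.8, while Cpox peaks at ZT19.9 and ZT18.1 in the WT groups.

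Of 25 other genes of heme synthesis, transport and breakdown, all tested, 3 rose and 3 fell in SPF LKO relative to SPF WT mice, 3 rose and 10 fell in GF LKO compared with GF WT, 5 rose and 1 fell in GF WT compared with SPF WT, and 8 rose and 4 fell in GF LKO compared with SPF LKO mice. Their median log2 fold changes were −0.015, −0.057, 0.081 and 0.024, against −0.0054, 0.0082, −0.020 and −0.017 over all genes tested. In the same order, 11.6%, 15.6%, 14.2% and 18.1% of all genes rose and 11.5%, 15.2%, 17.7% and 18.4% fell. Clpx, the mitochondrial unfoldase that acts on ALAS, rose in both LKO groups, with log2 fold changes of 1.03 (SE 0.24, adjusted p = 0.00145) in SPF and 1.11 (SE 0.24, adjusted p = 0.000436) in GF. The SPF value missed without the mice numbered 3 (adjusted p = 0.0556). Ugt1a1, which conjugates the bilirubin that heme breakdown yields, fell in both, by 0.69 (SE 0.11, adjusted p = 5.92e-06) and 1.08 (SE 0.11, adjusted p = 2.50e-10) on the log2 scale. Blvrb, a biliverdin reductase, fell by 0.41 (SE 0.11, adjusted p = 0.00494; 0.0675 without the mice numbered 1) and 0.76 (SE 0.087, adjusted p = 4.87e-09). Slc25a37, mitoferrin 1, which brings iron into the mitochondrion, fell in GF compared with SPF mice, by 0.51 (SE 0.11, adjusted p = 0.000791; 0.0503 without the mice numbered 2) in WT and 0.99 (SE 0.097, adjusted p = 9.20e-10) in LKO. By genotype it fell by 0.63 (SE 0.12, adjusted p = 3.84e-05, edgeR) in GF LKO compared with GF WT mice. The log2 fold change between the SPF genotypes was −0.14 (SE 0.096, adjusted p = 0.314).

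Of 16 transcription factors that act on heme genes or bind heme, 1 rose and 7 fell in SPF LKO compared with WT mice. In GF LKO compared with WT mice 1 rose and 8 fell. Of all genes, 11.6% rose and 11.5% fell in the first comparison, and 15.6% and 15.2% in the second. The medians of the list were −0.33 and −0.41 on the log2 scale. This list holds clock genes, and its called members of largest change were those: Npas2, itself a heme-binding partner of BMAL1, rose by 3.25 (SE 0.52) and 2.83 (SE 0.47), while Nr1d1, the heme receptor REV-ERBα, was lower (log2 fold changes −2.93, SE 0.53, and −2.80, SE 0.48). Dbp fell by 2.29 (SE 0.53) and 2.78 (SE 0.57), and Nr1d2 by 1.93 (SE 0.31) and 2.48 (SE 0.28). All 8 values had adjusted p of at most 0.00135 by edgeR, and that of Dbp in SPF mice missed without the mice numbered 3 (adjusted p = 0.0586). Between GF and SPF mice 0 rose and 1 fell in WT, and 1 rose and 5 fell in LKO. Of all genes, 14.2% rose and 17.7% fell in WT, and 18.1% rose and 18.4% fell in LKO.

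Of 12 hemoproteins, the users of heme, 1 rose and 3 fell in SPF LKO, and 1 rose and 8 fell in GF LKO compared with WT mice (medians −0.13 and −0.28 on the log2 scale). In GF compared with SPF mice 6 rose and 2 fell in WT and 2 rose and 3 fell in LKO (medians 0.21 and 0.019). In the same order, 11.6%, 15.6%, 14.2% and 18.1% of all genes rose and 11.5%, 15.2%, 17.7% and 18.4% fell. The medians over all genes tested were −0.0054, 0.0082, −0.020 and −0.017. Cyp3a11, an abundant cytochrome P450 of drug metabolism, fell by 2.42 (SE 0.30) in GF WT and by 5.01 (SE 0.14) in GF LKO compared with SPF mice of the same genotype, and by 2.38 (SE 0.28) in GF LKO compared with GF WT mice, while the SPF genotypes differed by 0.22 (SE 0.17, adjusted p = 0.369). Cyp2a5 fell by 1.47 (SE 0.34) in SPF LKO and by 3.18 (SE 0.23) in GF LKO compared with WT mice, the SPF value missing without the mice numbered 1 or 3 (adjusted p = 0.0532 and 0.0565). Cyp2b10 rose by 1.56 in LKO mice in both conditions (SE 0.28 and 0.27) and fell by 0.94 (SE 0.34, adjusted p = 0.0298) and 0.92 (SE 0.20) in GF WT and GF LKO compared with SPF mice, the first missing without SPF WT ZT14 replicate 2 (adjusted p = 0.0596) or ZT22 replicate 1 (adjusted p = 0.0534). Cyp4a14 fell by 1.66 (SE 0.32) and 2.63 (SE 0.41) in SPF LKO and GF LKO compared with WT mice.

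Across the 24 means of log2 CPM (4 groups at 6 ZT), the members did not move as 1 group. Among them Alas1 ran with Fech (Pearson r = 0.70), the first with the last enzyme, and Cpox with Hmox1 (r = 0.54), while Uros ran against Hmox1 (r = −0.78) and Cpox (r = −0.66), and Urod against Ppox (r = −0.62). Of 10702 genes compared, those nearest to Alas1 over these means were Mtss1 (r = 0.92), Usp2 (r = 0.89), Pex26 (r = 0.89), Pik3r1 (r = 0.88) and Epb41 (r = 0.88), and those nearest to Hmox1 were Etnk1 (r = 0.87), Itgal (r = 0.85), Pkp4 (r = 0.84), Pacsin2 (r = 0.84) and Phf3 (r = 0.83). The points of these correlations share libraries, depth and time of day between genes, and they are given as a description.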

How the data were processed

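RNA of 72 mouse livers was measured once per mouse. Per the labels and the study's methods, the authors made stranded mRNA libraries, read 50 bases from a single end, aligned them with STAR 2.6.1b to mm10 and counted exon reads with featureCounts 2.0.0 and the Ensembl release 97 annotation, not using strand and leaving out reads with more than 1 alignment or gene. The deposited values are the resulting raw counts per gene. A total of 17369927 to 22076113 counts per library limits precision for low genes only. Libraries were grouped by their labels, and 0 columns were left unused. The members and the lists were chosen with earlier results of these data known.

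Groups were compared by edgeR 4.0.16 (R 4.3.3; TMM factors, its filter on low counts, quasi-likelihood test, Benjamini-Hochberg adjustment over all genes tested, threshold 0.05). CPM were scaled by TMM. Pairs of groups were fitted on 36 libraries with ZT pooled, single ZT on 12 libraries with 4 group means, rhythms of 24 h by cosine and sine terms on 18 libraries, and differences in rhythm on 36. The authors used DESeq2 and a rank test of rhythms. DESeq2 1.42.0 and limma 3.58.1 (prior count 2) served as alternatives, with other scaling, no filter, ZT as a factor, a replicate block and libraries left out. Nothing says that same-numbered mice were paired, so p-values measure the spread between mice. In the pooled fits and the interaction that spread includes the differences between ZT. Symbols, coordinates and exon lengths came from GENCODE vM21 (GRCm38), which held 55394 of the 55573 genes, and promoter windows from RefSeq (GRCm38.p6). Named genes were the 8 members, at most 4 genes of each list called in at least 1 pooled comparison, by largest absolute fold change, and the 5 genes with the highest correlation to Alas1 and Hmox1. Figures were drawn with matplotlib 3.10.9. Some genes of the lists are not reported here by name.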

Additional observations from a re-analysis of the deposited data

Results flagged for a closer look

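Cyp3a11 differed in its genotype effect between GF and SPF mice, since the log2 fold change of LKO against WT was lower by 2.61 in GF mice (−2.61, SE 0.32, adjusted p = 1.77e-07, edgeR's quasi-likelihood test of the interaction on 72 libraries), and the call held under all 9 alternatives run. Cyp2a5 differed in the same way by −1.72 (SE 0.41, adjusted p = 0.0272), a call that was lost in 5 of 9 alternatives, with the replicate block (adjusted p = 0.0947), without the 4 libraries that went against their labels (0.461) and without the mice of each number (0.144 to 0.628).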

How the results depend on the processing

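All 8 genes passed the filter in every pooled comparison, and no called result changed sign. Counts of called members stayed within 1.5 times of the values given except as follows. Within ZT, GF LKO against GF WT gave 14 calls with DESeq2 and 13 with no filter, SPF LKO against SPF WT 10 and GF WT against SPF WT 5 with no filter, and GF LKO against SPF LKO 7 with DESeq2. Rhythms in SPF LKO numbered 1 with ZT as a factor. A difference in rhythm between LKO and WT mice passed for 1 gene, Cpox, in SPF with limma (adjusted p = 0.045) and without the 4 libraries, and in GF with no filter (adjusted p = 0.0319). Leaving out mice gave 1 to 4 calls with ZT pooled between SPF LKO and SPF WT (1 without the mice numbered 1 or 3), 4 to 6 between GF LKO and GF WT, 1 to 4 between GF WT and SPF WT (1 without those numbered 3) and 0 to 5 between GF LKO and SPF LKO (0 without those numbered 2). Within ZT the ranges were 1 to 4, 1 to 9, 0 to 4 and 1 to 4, where any of the 6 LKO libraries of ZT2 left out gave 2 in the last. Rhythms ranged from 1 to 2 in SPF WT, 0 to 2 in SPF LKO (0 without the mice numbered 1), 2 to 3 in GF WT and 1 to 2 in GF LKO. The interaction stayed at 0 to 0, as did differences in rhythm in 3 comparisons, and that of LKO and WT in GF mice ranged from 0 to 1 (Alas1 without the mice numbered 3, adjusted p = 0.0228). At most 6 of 18 pairs of same-numbered mice in a comparison had deviations correlated above 0.1. The median r by comparison was −0.047 to 0.00768, and the highest single r was 0.459. Mice of different numbers were not compared, so these values cannot tell whether the replicate numbers pair mice. With the replicate block, calls within ZT between GF LKO and SPF LKO fell to 2. Hmox1 gained a rhythm in SPF LKO mice (adjusted p = 0.0383) and Cpox lost its rhythm in GF LKO mice (adjusted p = 0.057). With ZT pooled, the block gave a call of Alas1 between SPF LKO and SPF WT (−0.76, adjusted p = 0.000897, edgeR). Each block there was 1 replicate number at 1 ZT, so time of day was taken out as well. ZT alone as a term also gave this call (−0.71, adjusted p = 0.00177). Within ZT the block also ended the calls of Hmox1 at ZT6 and ZT18, of Alad between GF WT and SPF WT mice at ZT18 and of Cpox between GF LKO and SPF LKO mice at ZT2 (adjusted p = 0.0503 to 0.0634). Over 182 values of single genes, 4325 alternatives kept the call, 229 lost it and 35 gained it, and 56 changes of sign were in 15 values called in neither fit. The causes were not tested. Depth limits the low members, Ppox and Hmox1, most.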
